A study of Mus musculus with 7 samples.

Results

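The giant scaffold protein gene Ahnak and 9 genes of the S100 and annexin families were followed in regulatory T cells (Tregs) from mouse skin and from the lymph nodes that drain it. The 10 genes are Ahnak, S100a4, S100a6, S100a10, S100a11, Anxa1, Anxa2, Anxa4, Anxa5 and Anxa6, and they were read by symbol from a table of 24084 gene symbols. They were chosen by family and with their skin and lymph node values from these same libraries in view. Their differences between the tissues are therefore a description, and where a call from the whole-table fit is given for them it is not used as evidence.

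The libraries hold messenger RNA of Tregs sorted from Foxp3-DTR/GFP mice aged 6 weeks, a strain in which the Foxp3 gene also drives the diphtheria toxin receptor and a green fluorescent protein. Every animal of both groups carried that allele, and no treatment is named. The comparison is between 4 libraries from telogen skin (skin 1 to 4), the resting stage of the hair cycle, and 3 libraries from skin-draining lymph nodes (SDLN 1 to 3). How cells were gated and how many animals were pooled were not given in the sources used here. The spread between libraries may therefore be technical.

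Annexins are proteins that bind acidic phospholipids when calcium rises, and so attach to the inner face of the plasma membrane. S100 proteins are small calcium-binding dimers with EF-hand motifs. S100A10 is an exception that no longer needs calcium. It joins with annexin A2 in a tetramer, and the carboxyl end of the very large protein AHNAK binds this tetramer, which links the cell membrane to cortical actin. In T cells AHNAK is known for its part in calcium entry after receptor signalling, and S100A4 and annexin A1 are familiar transcripts of antigen-experienced T cells.

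The members lie on 5 chromosomes of GRCm38 (mm10), in GENCODE coordinates, and all are protein-coding. Ahnak spans chromosome 19, 8989284 to 9076914, on the plus strand, with 19.9 kb of exon. S100a4 (chromosome 3, 90603771 to 90606045) and S100a6 (chromosome 3, 90612882 to 90624181) lie 6836 bases apart, and S100a11 (chromosome 3, 93520488 to 93526287) and S100a10 (chromosome 3, 93555080 to 93564643) lie 28792 bases apart, all on the plus strand. The annexin genes are scattered, with Anxa1 on chromosome 19 (20373428 to 20390944, minus strand), Anxa2 on chromosome 9 (69453620 to 69491795, plus strand) and Anxa4 on chromosome 6 (86736840 to 86793584, minus strand). Anxa5 lies on chromosome 3 (36448923 to 36475894, minus strand) and Anxa6 on chromosome 11 (54979108 to 55033445, minus strand).

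Promoter entries of RefSeq on GRCm38.p6, each running from 250 bases before the start to 50 after it, matched 8 of the 10 members. They are shown because 9 of the 10 members were higher in every skin library than in any SDLN library. That held for 10.1% of all genes tested, as given further on, and a link to the motifs was not tested. Of 4 motifs searched on both strands, AP-1 was TGANTCA, the cAMP response element TGACGTCA, the TATA box TATAAA and the GC box GGGCGG. AP-1 letters were found in S100a11 and Anxa2, 2 of 8 members, against 7.81% of 32851 entries. The 8 members have 9 entries, and a member counts if any of its entries matches. The percentages here and below are of single entries. The S100a11 stretch (chr3:93520346-93520495, plus strand) holds AP-1 letters that begin 136 and 38 bases before the start, and the Anxa2 stretch (chr9:69453573-69453682, plus strand) holds them 95 bases before it. Capitals mark AP-1 in these lines.
S100a11: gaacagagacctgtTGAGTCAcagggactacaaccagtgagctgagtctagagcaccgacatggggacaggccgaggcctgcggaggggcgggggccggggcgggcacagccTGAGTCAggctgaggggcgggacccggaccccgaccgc
Anxa2: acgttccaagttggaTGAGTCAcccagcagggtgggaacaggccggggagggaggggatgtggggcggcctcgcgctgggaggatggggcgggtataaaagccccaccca

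The other motifs were matched in different but partly overlapping sets of members. TATA box letters were found in S100a4, Anxa1 and Anxa2, 3 of 8 members, against 13.6% of entries. They begin 31 bases before the start in S100a4 (chr3:90603710-90603769, plus strand) and 32 bases before it in Anxa1 (chr19:20390672-20390731, minus strand). In Anxa2 they begin 17 bases before it. GC box letters were found in 4 of 8 (Ahnak, Anxa2, Anxa4 and S100a11), against 35.7% of entries, and in Ahnak (chr19:8989194-8989283, plus strand) they lie 78, 68 and 39 bases before the start, read on the opposite strand. No cAMP response element letters were found in the 8, against 1.79% of entries. A match is a match of letters and was not tied to binding of a factor. Capitals mark the TATA box in S100a4 and Anxa1 and the GC box in Ahnak.
S100a4: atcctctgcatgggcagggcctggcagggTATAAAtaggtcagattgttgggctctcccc
Anxa1: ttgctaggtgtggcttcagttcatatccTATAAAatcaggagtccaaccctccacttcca
Ahnak: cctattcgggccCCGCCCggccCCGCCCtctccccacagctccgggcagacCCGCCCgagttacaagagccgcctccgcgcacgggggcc

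Levels are given as CPM, read counts relative to the scaled library size, and gene counts came to 13123241 to 14785751 per SDLN library and 11009609 to 13921238 per skin library. All 6 Treg markers looked for were detected in all 7 libraries, and Foxp3 itself ranged from 69.0 to 102 CPM in SDLN and from 107 to 248 CPM in skin. Ctla4 was also higher in every skin library, Il2ra overlapped, and Cd3e, Cd3d and Cd4 were lower in every skin library, with Cd3e at 1662 to 2203 CPM in SDLN against 560.4 to 1248 CPM in skin. The labels of skin 1 disagree, with a tag for lymph node beside a title for skin, and the title was followed. SDLN 3 had 3877 counts of the Y-linked gene Ddx3y, where skin 3 had 2 and the other libraries none. The X-linked transcript Xist had 4 counts in SDLN 3 and 4653 to 11758 in the other libraries. Some libraries stood apart in markers of other cells. Summed keratinocyte markers reached 1511 CPM in skin 3 against 8.65 to 30.6 CPM in all others, and fibroblast markers reached 3116.5 CPM in skin 3 against 3.14 to 17.1 CPM. Macrophage and dendritic cell markers (11 of 12 in the table) summed to 16.1 to 25.9 CPM in SDLN, 189 to 196 CPM in skin 1 to 3 and 674 CPM in skin 4 (exact permutation test between the tissues, two-sided, p = 0.0286, the smallest possible, and 0.1 after Benjamini-Hochberg adjustment over 14 measures). The Langerhans cell marker Cd207 had no count in any skin library. B cell markers summed to 78.6 to 102 CPM in SDLN and 2.99 to 38.4 CPM in skin (exact permutation p = 0.0286, adjusted 0.1). Endothelial markers summed to 388 to 548 and 16.2 to 73.4 CPM (exact permutation p = 0.0286, adjusted 0.1). Pecam1 alone gave nearly all of the endothelial sum in SDLN, where Cdh5, Kdr and Vwf had no count and Emcn had 1. Cdh5 and Emcn went the other way, with 88 and 34 counts in skin 3 and none in the other skin libraries. Genes with a count numbered 13408 to 13845 in SDLN and 9690 to 12639 in skin (exact permutation p = 0.0571, adjusted 0.133). The 8 dissociation response genes, mostly Fos and Dusp1 in skin, summed to 63.3 to 77.8 CPM in SDLN and 1506 to 5144 CPM in skin (exact permutation p = 0.0571, adjusted 0.133), with Jun, Egr1 and Ier2 overlapping between the tissues. The part of these measures in the results below was not tested. Where a value without 1 skin library is given, the other skin libraries kept their own macrophage, dendritic cell and dissociation response sums. In bulk libraries fewer cells of a type and less RNA per cell cannot be told apart.

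All 10 members passed the filter on low counts. In the whole-table fit, 6 of the 10 (Ahnak, S100a4, S100a6, S100a11, Anxa1 and Anxa2) were called higher in skin at an adjusted p under 0.05, a call made for 3.28% of 11376 genes. DESeq2 called 8, adding S100a10 and Anxa4, against 8.11% of all genes, and limma-voom 6, with S100a10 in place of Anxa1, against 2.17%. None was called lower by edgeR, at an unadjusted p under 0.05, by DESeq2 or by limma-voom, whereas 3.96% of all genes were called lower by edgeR, 4.46% by DESeq2 and 6.05% by limma-voom. At an unadjusted p under 0.05, 969 of the 11376 genes were lower. For 9 of 10 members, all but Anxa5, every skin library stood above every SDLN library, which held for 10.1% of all genes. The median log2 fold change of the members was 2.54, against 0.05 over all genes tested. Because these values chose the members, nothing further is read from the counts. They also moved with single libraries. In edgeR, without SDLN 1 or without SDLN 2 only Ahnak and Anxa1 were called, among 39 and 33 genes called higher in all, and without SDLN 3 the 6 members stayed called while the genes called higher fell to 61. Without skin 1 the count of genes higher was 582 and S100a10 joined the members called, and without skin 3 S100a10 and Anxa4 both joined them. The genes called lower numbered 451, and between 9 and 15 without any 1 SDLN library and 822 without skin 3.

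**Figure D1:**
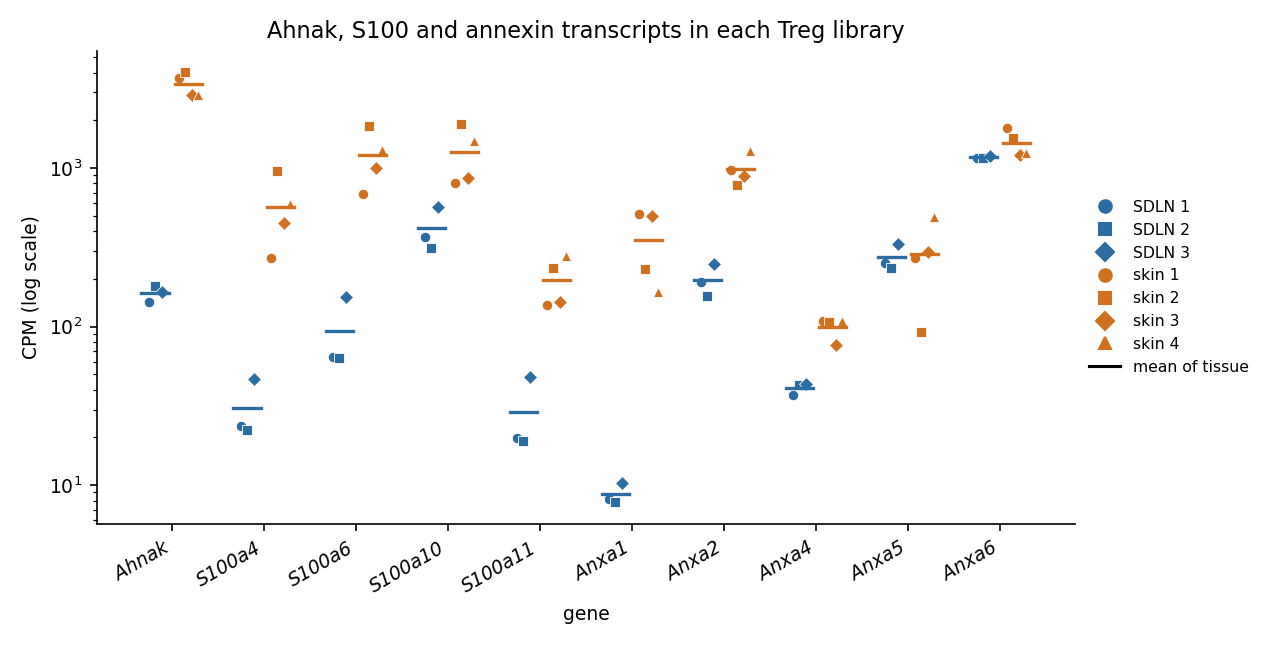
Level of each of the 10 members in CPM on a log axis, with a point for each library (SDLN 1 to 3 and skin 1 to 4) and a bar at the mean of each tissue. Skin points lie above all SDLN points for every member but Anxa5, whose skin 2 value of 92.1 CPM is the lowest of the 7.

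Ahnak combined a large difference with little spread. It was at 144, 180.4 and 165 CPM in SDLN 1 to 3 and at 3721, 4022, 2899.6 and 2871 CPM in skin 1 to 4. The lowest skin library was thus far above the highest SDLN library, and the skin libraries lay close together. The fitted fold was 20.7 (log2 fold change 4.37, SE 0.26), from means of 163 ± 18.5 CPM (SD, n = 3) and 3378 ± 582 CPM (SD, n = 4). Without skin 3, the library with keratinocyte and fibroblast markers, the log2 fold change was 4.44. Ahnak alone took 0.0143% to 0.0185% of gene counts in SDLN and 0.289% to 0.401% in skin. Its only paralog in the table, the periaxin gene Prx, had at most 5 counts in any library, and Ahnak2 was not analysed here.

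The neighbours S100a4 and S100a6 had the larger folds of the 4 S100 members. S100a4 encodes a partner of non-muscle myosin that is linked to cell movement, and it was at 23.5, 22.4 and 46.5 CPM in SDLN and 269.98, 964, 448 and 593 CPM in skin. All skin values were above all SDLN values, but skin 2 held 3.57 times the level of skin 1. The fitted fold was 18.5 (log2 fold change 4.21, SE 0.56). S100a6, the calcyclin gene, was at 64.7, 63.7 and 154 CPM in SDLN and 683, 1853, 1006 and 1299 CPM in skin. Again the tissues were separate, with SDLN 3 the highest of its tissue and skin 1 the lowest of its own. Its fitted fold was 12.9 (log2 fold change 3.69, SE 0.51). In the annotation S100a4 overlaps the predicted gene Gm42674 on the same strand, and 47.4% of its 50-base transcript words also occur there, so its level is uncertain in both tissues.

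S100a11, whose protein binds annexin A1, was at 19.7, 19.1 and 47.9 CPM in SDLN and 137, 235, 143 and 278 CPM in skin. Its tissues did not overlap, and SDLN 3 was again well above SDLN 1 and 2. The fitted fold was 6.86 (log2 fold change 2.78, SE 0.50). Of its transcript words, 41.1% recur in the predicted genes Gm12854, Gm29240 and Gm7665, and its level is uncertain for the same reason. S100a10, the calcium-independent member that pairs with annexin A2, was at 369, 314 and 569 CPM in SDLN and 800.5, 1890.4, 872 and 1473 CPM in skin. It was the most abundant S100 member in SDLN and had the smallest fold of the 4, at 3.01 (log2 fold change 1.59, SE 0.39). It was just outside the threshold in edgeR, and its log2 fold change was 1.74 without skin 3.

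Anxa1, the gene of the lipocortin that glucocorticoids induce, had the lowest SDLN level and the largest fold of the members. It was at 8.21, 7.80 and 10.3 CPM in SDLN and 510.5, 229, 499.7 and 166 CPM in skin. Skin 1 and 3 were high and skin 2 and 4 lower, yet the lowest skin library exceeded every SDLN library. The fitted fold was 39.9 (log2 fold change 5.32, SE 0.55), and the log2 fold change was 5.10 without skin 3. With limma-voom Anxa1 lost its call, alone among the 6. Anxa2, the annexin of the S100A10 tetramer, was at 190.7, 155 and 248 CPM in SDLN and 973, 784, 886 and 1282 CPM in skin. These tissues were separate and its skin libraries were alike, with a fold of 4.96 (log2 fold change 2.31, SE 0.29). Its log2 fold change was 2.14 without skin 4, the library highest in macrophage and dendritic cell markers.

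Anxa4, known from secretory epithelia, was the least abundant annexin member in skin. Its values were 37.0, 42.9 and 43.6 CPM in SDLN and 108, 107, 76.6 and 109 CPM in skin, so skin 3 stood below 3 like values. The fold was 2.43 (log2 fold change 1.28, SE 0.35) and was not called by edgeR with all 7 libraries. Anxa6, a large annexin with a doubled core that binds membrane cholesterol domains, was at 1165.6, 1165.5 and 1183 CPM in SDLN and 1786, 1552, 1216 and 1239.5 CPM in skin. The tissues did not overlap, but skin 3 and 4 were only just above SDLN, and the fold was 1.24 (log2 fold change 0.31, SE 0.22). Anxa5, whose protein is the usual reagent for exposed phosphatidylserine, was at 254, 236 and 332 CPM in SDLN and 273, 92.1, 297 and 488 CPM in skin. Skin held both its lowest and its highest library, and the log2 fold change of 0.07 (SE 0.49) became -0.33 without skin 4, -0.04 without SDLN 2 and 0.35 without skin 2.

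**Figure D2:**
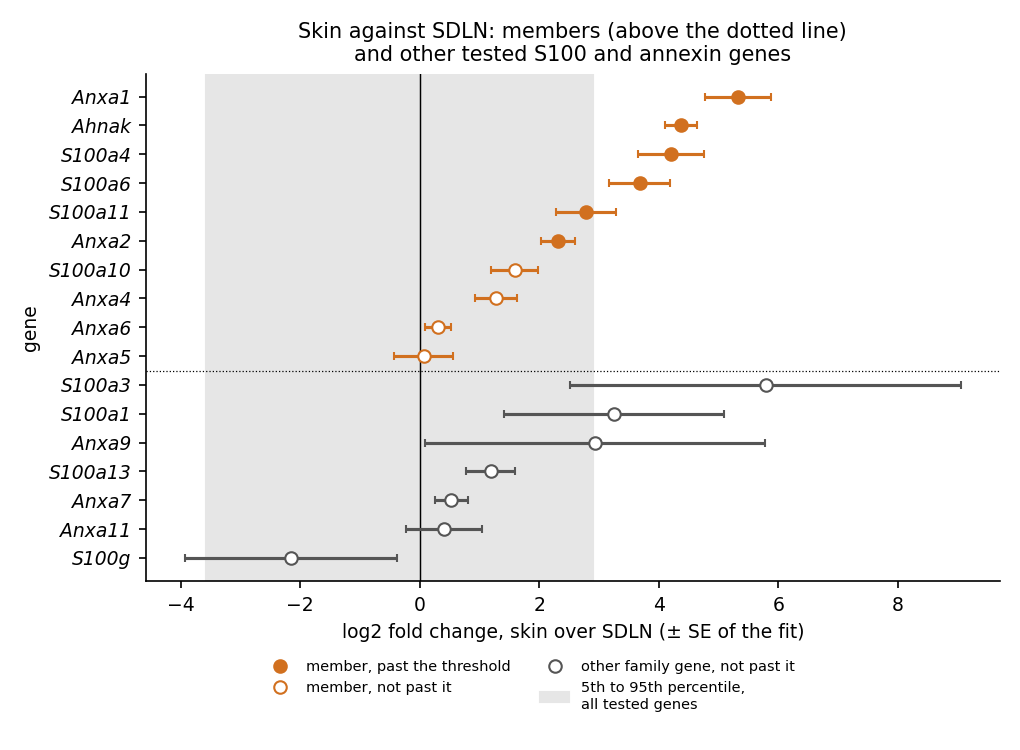
Log2 fold change of skin over SDLN with its SE for the 10 members (above the dotted line) and for the other tested S100 and annexin genes, with a grey band from the 5th to the 95th percentile of all tested genes (-3.58 to 2.90). Of the members Ahnak, S100a4, S100a6 and Anxa1 lie above the band and Anxa5 at 0.07, and the other genes S100a3, S100a1 and Anxa9 also lie above it, with wide errors.

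Levels of different genes were compared as CPM per kilobase of exon, which assumes that reads cover the whole exon length evenly. In SDLN the order by mean was Anxa6 (399.8 ± 3.52, SD, n = 3), S100a10 (345 ± 111), Anxa5 (154 ± 28.8), S100a6 (68.8 ± 37.8), S100a11 (56.5 ± 32.2), Anxa2 (53.0 ± 12.5), S100a4 (52.7 ± 23.3), Anxa4 (8.87 ± 0.775), Ahnak (8.17 ± 0.927) and Anxa1 (3.02 ± 0.470). Neighbours overlapped in their SD within the run from S100a6 to S100a4, between Anxa6 and S100a10 and between Anxa4 and Ahnak, and at the other steps they did not. In skin the order was S100a10 (1039 ± 427, SD, n = 4), S100a4 (974 ± 505), S100a6 (885 ± 363), Anxa6 (494 ± 93.0), S100a11 (388 ± 136), Anxa2 (263 ± 57.6), Ahnak (169 ± 29.2), Anxa5 (162 ± 91.2), Anxa1 (121 ± 61.7) and Anxa4 (21.5 ± 3.36). Neighbours overlapped in their SD at every step except those from Anxa2 to Ahnak and from Anxa1 to Anxa4. By its length, Ahnak was a transcript of middling level in SDLN, above 56.7% of the genes tested, and above 98.2% of them in skin. Anxa1 moved from above 34.3% to above 97.1%. With the longest transcript as the length, S100a10 came first in both tissues, at 609.6 and 1838 CPM per kilobase, and Anxa6 second in SDLN, and S100a6 stood above S100a4 in skin, at 1546 against 1142.

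The make-up of each family differed between the tissues as well as its sum. The 4 S100 members summed to 431, 381 and 756 CPM per kilobase in SDLN and 1891, 5026, 2502 and 3725 in skin. S100a10 made up 66.9 ± 4.36% (SD, n = 3) of that sum in SDLN and 31.8 ± 2.61% (SD, n = 4) in skin, while S100a4 went from 9.97 ± 0.607% to 28.8 ± 3.70% and S100a6 from 12.7 ± 1.99% to 27.1 ± 1.67%. The S100a11 share was 10.4 ± 1.8% and 12.3 ± 2.58%, with the tissues overlapping. By these values the SDLN pool was mostly S100a10, and the skin pool was split between S100a10, S100a4 and S100a6. Because S100a4 and S100a11 share transcript words with predicted genes, all of these shares are uncertain in both tissues. With longest-transcript lengths the S100a10 share was 72.8% in SDLN, and the skin shares were 37.6% for S100a10, 31.6% for S100a6 and 22.6% for S100a4.

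The 5 annexin members summed to 603, 584 and 670.04 CPM per kilobase in SDLN and 1223, 893, 1008 and 1122 in skin, a smaller step than that of the S100 genes (ratio of means 1.72 against 6.29). With longest-transcript lengths Anxa2 stood above Anxa6 in skin 4, at 37.9% against 33.6%. Anxa6 and Anxa5 together dominated SDLN, at 64.8 ± 4.06% and 24.8 ± 2.74% (SD, n = 3). In skin Anxa6 was at 47.0 ± 9.65% (SD, n = 4), Anxa2 at 24.8 ± 4.05% against 8.51 ± 1.39% in SDLN, and Anxa1 at 11.3 ± 5.39% against 0.486 ± 0.0390%. The Anxa5 share in skin ranged from 5.80% in skin 2 to 24.5% in skin 4. S100a10 and Anxa2, the partners in the tetramer, were at a per-length ratio of 5.96, 6.23 and 7.07 in SDLN and 2.53, 7.43, 3.03 and 3.54 in skin. Skin 1, 3 and 4 were below all SDLN libraries in this ratio and skin 2 was above them.

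**Figure D3:**
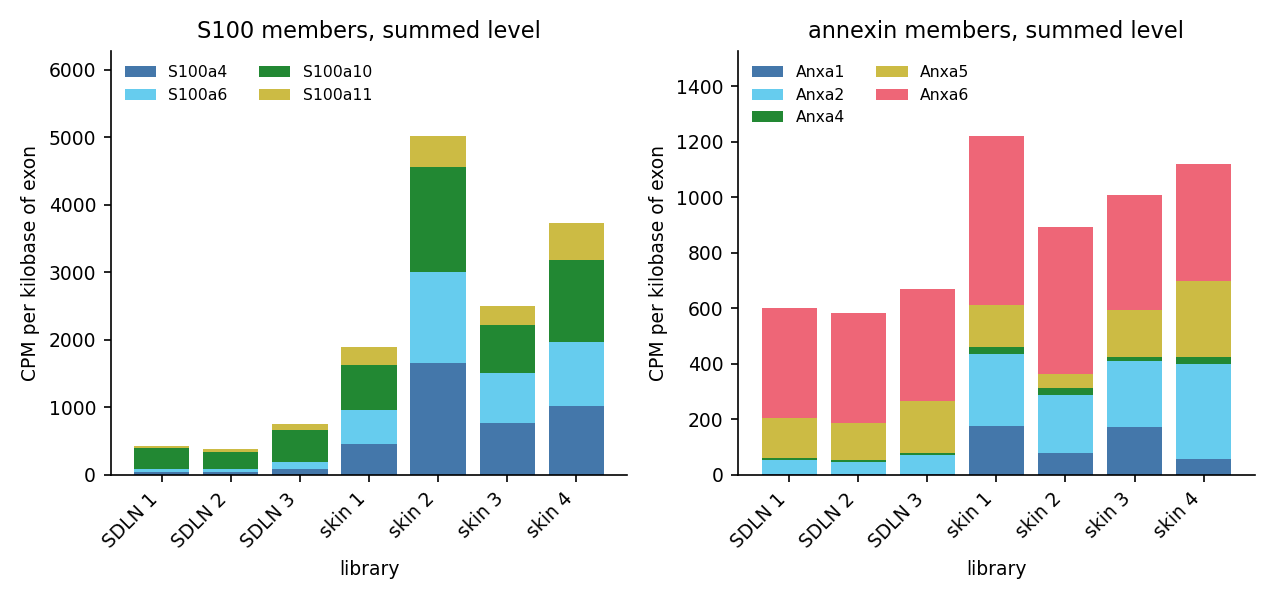
Stacked bars of CPM per kilobase of exon in each library, for the 4 S100 members and the 5 annexin members, each bar split by gene. The S100 bars go from 381 to 756 in SDLN, mostly S100a10, to 1891 to 5026 in skin, while the annexin bars go from 584 to 670.04 to 893 to 1223 with Anxa6 the largest piece in every library.

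Within skin the members did not follow a single order of libraries. S100a4, S100a6 and S100a10 shared the order skin 2, 4, 3, 1 from high to low, and S100a11 differed only in having skin 4 above skin 2. Anxa1 ran the opposite way, with skin 1 and 3 above skin 2 and 4. Anxa2, Anxa4 and Anxa5 were highest in skin 4, and Anxa6 was highest in skin 1. Skin 3, with its keratinocyte and fibroblast markers, was the highest skin library for none of the 10. Skin 4, with the highest macrophage and dendritic cell marker sum, was the highest for 4 of them.

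The coefficient of variation over the 4 skin libraries was 0.172 for Ahnak, 0.156 for Anxa4, 0.188 for Anxa6 and 0.219 for Anxa2. The S100 members ranged from 0.350 for S100a11 to 0.519 for S100a4, and Anxa1 and Anxa5 were at 0.511 and 0.564. The median of 7046 genes whose mean was 20 CPM or more was 0.572, and 3.79% of them varied less than Ahnak. Ahnak, Anxa4, Anxa6 and Anxa2 were thus among the steadier transcripts of these skin libraries.

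Within SDLN the S100 members were higher in SDLN 3 than in the other two. The ratio of SDLN 3 to the mean of SDLN 1 and 2 was 2.47 for S100a11, 2.39 for S100a6, 2.03 for S100a4 and 1.67 for S100a10, where the median gene was at 0.999. This ratio was 1.02 each for Ahnak and Anxa6, and for the other annexins it lay between 1.09 for Anxa4 and 1.43 for Anxa2. The coefficient of variation over the SDLN libraries was 0.113 for Ahnak, 0.0874 for Anxa4 and 0.0088 for Anxa6. SDLN 3 is also the library with abundant Y-linked Ddx3y transcripts. With 1 such library the sex of the animals and the library cannot be told apart. Without SDLN 3 the same 6 members were called.

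Of 12 other S100 genes, 4 could be tested and none was called by edgeR, DESeq2 or limma-voom. At an unadjusted p under 0.05, 1 of the 4 was higher, beside 1142 of all 11376 genes. The S100 gene higher at that p, S100a13, a secretion partner of growth factors that lack a signal peptide, was the most abundant of the 12. It was at 66.6, 65.0 and 105 CPM in SDLN and 118, 277, 119 and 206 CPM in skin, with no overlap (log2 fold change 1.19, SE 0.41, adjusted p = 0.163). Of 7 other annexins 3 could be tested and none was called by any of these tools or at an unadjusted p under 0.05. Anxa7, an annexin of granule membranes, was the most abundant, at 112 ± 4.53 CPM (SD, n = 3) and 162 ± 33.5 CPM (SD, n = 4), with a log2 fold change of 0.53 (SE 0.28, adjusted p = 0.381).

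Of the relatives not yet described, Anxa11 had 202 to 837 counts in all 7 libraries, with the tissues overlapping. S100a1 had 24 to 33 counts in SDLN and 0, 281, 454 and 249 counts in skin 1 to 4. Several others, mostly genes known from epithelia or neutrophils, had nearly all their counts in a single skin library. The hair and skin gene S100a3 had 3614 counts in skin 3, at most 1 in another skin library, and 25, 23 and 13 counts in SDLN. S100a14 had 916 counts and S100a7a 358 counts in skin 3 and none in any other library. S100a16 had 2386 counts in skin 3 and 1 in skin 4, and Anxa8, an annexin of stratified epithelium, had 690 in skin 3 and 4 in skin 4. S100a8, of the calprotectin pair, had 90 counts in skin 3 only, and its partner S100a9 had none in any library. Anxa3 had 294 counts in skin 3 and at most 9 elsewhere, whereas Anxa9 had 448 counts in skin 4, none in other skin libraries and 12 to 18 in SDLN. Each of the 10 members had at least 113 counts in every library of both tissues, and so did the relatives S100a13, Anxa7 and Anxa11. Without skin 3, which also holds the keratinocyte and fibroblast markers, the members' log2 fold changes were 4.31 for S100a4, 3.77 for S100a6, 2.91 for S100a11 and 2.36 for Anxa2. The part of other cells in these values was not tested.

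**Figure D4:**
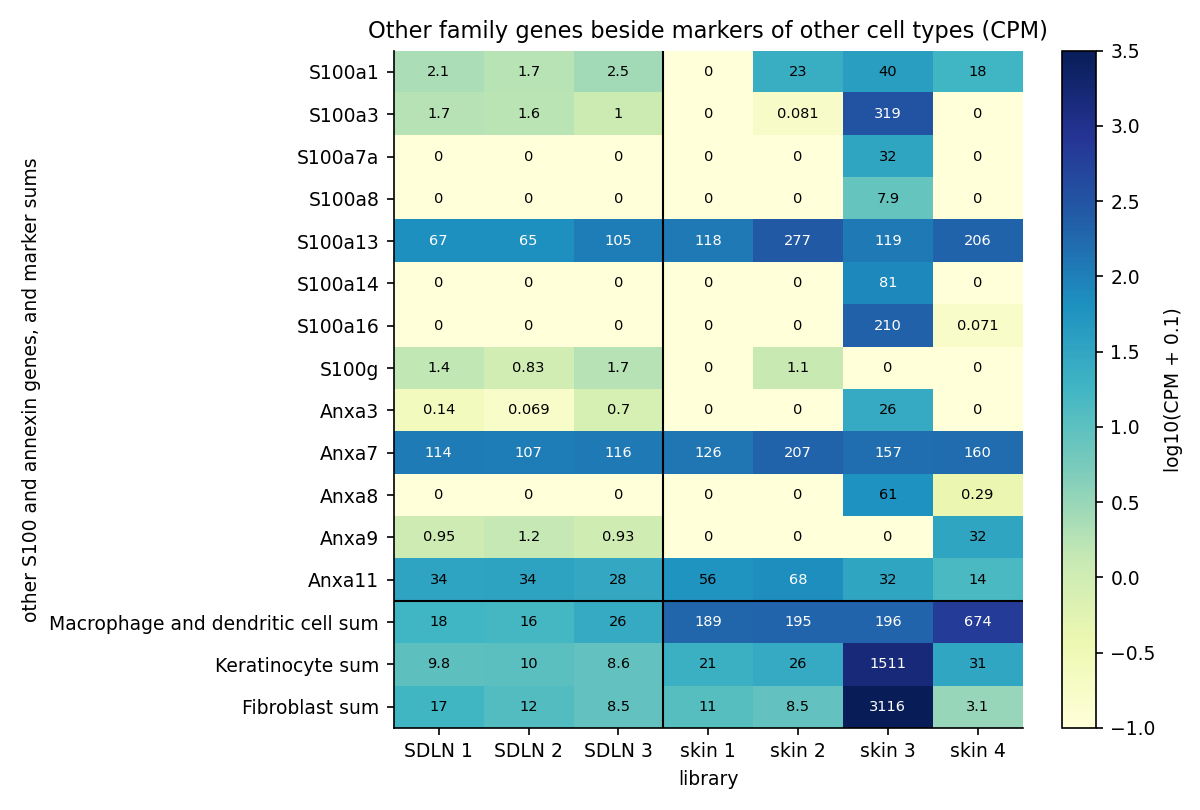
Heat map of log10(CPM + 0.1) of the other S100 and annexin genes and of the marker sums of other cell types, by library. S100a3, S100a7a, S100a8, S100a14, S100a16, Anxa3 and Anxa8 are bright in skin 3 alone, beside the keratinocyte and fibroblast sums, and Anxa9 is brightest in skin 4.

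Of 67 genes in the family and partner lists, 43 could be tested, 2 were called higher and none lower by edgeR, 2 of 43 beside the 3.28% of all genes called higher, with a median log2 fold change of 0.43. At an unadjusted p under 0.05, 11 were higher and 1 lower, where 1142 and 969 of all 11376 genes were. DESeq2 called 7 higher and 0 lower, against 8.11% and 4.46% of all genes, and limma-voom 3 and 0, against 2.17% and 6.05%. The 2 that edgeR called were Cd44 and Plec. Cd44, the hyaluronan receptor that anchors to the same cortical layer, was at 313, 314 and 304 CPM in SDLN and 1942, 1449.5, 1698 and 1629 CPM in skin. It rose 5.41-fold (log2 fold change 2.44, SE 0.21, adjusted p = 0.00173), with tissues far apart and little spread in either, like Ahnak.

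Plec encodes plectin, which ties intermediate filaments to the membrane, and was at 369, 338 and 420.1 CPM in SDLN and 603, 886, 895 and 759.7 CPM in skin. It rose 2.09-fold (log2 fold change 1.06, SE 0.23, adjusted p = 0.0380). Plec was the single gene edgeR called of 12 cortical cytoskeleton genes, where DESeq2 called 3 and limma-voom 2. The shares of all genes called higher were 3.28% by edgeR, 8.11% by DESeq2 and 2.17% by limma-voom. Plec lost the call without any 1 SDLN library (adjusted p = 0.187, 0.190 and 0.165 without SDLN 1, 2 and 3), without skin 2 (0.0516) and without skin 4 (0.0574), over a range of 3.32e-04 to 0.323 in all alternatives. Cd44 was the single gene edgeR called of 7 tested receptor and surface genes, where DESeq2 called 2 and limma-voom 1, beside the same shares of all genes. Its adjusted p was 1.90e-34 to 0.0572 over the alternatives.

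None of 9 tested membrane repair genes was called by edgeR or limma-voom, while DESeq2 called 2 of the 9 higher, against 8.11% of all genes. At an unadjusted p under 0.05, 3 were higher, against 1142 of all 11376 genes. They were Capn2, and Capns1 and Ehd1, which were named after their values were seen. The most abundant repair gene over the 7 libraries, Capn2, the large subunit of a calcium-activated protease, was at 74.6, 84.0 and 97.6 CPM in SDLN and 419.7, 629, 231 and 149 CPM in skin. Its tissues did not overlap, and it missed the threshold in edgeR (log2 fold change 2.06, SE 0.51, adjusted p = 0.0507). Neither of the 2 nuclear partners was called, at an unadjusted p under 0.05 or by another tool, and Hltf was at 177 ± 27.4 and 127 ± 26.3 CPM (adjusted p = 0.456). None of 6 other EF-hand genes was called by the 3 tools. At an unadjusted p under 0.05, 1 of the 6 was lower (Sri, named after its values were seen), beside 969 of all 11376 genes.

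Among 7045 other tested genes whose mean was 20 CPM or more, those whose profile over the 7 libraries was most like that of Ahnak were Rora, Nr4a1, Per1, Rap2a and Rgs2. The root-mean-square difference in centred log2 CPM was 0.20 for Rora, 0.20 for Nr4a1, 0.21 for Per1, 0.29 for Rap2a and 0.31 for Rgs2. Rora encodes a nuclear receptor, and Nr4a1 is induced by antigen receptor signals. The nearest members were S100a4, at rank 44, S100a6, at rank 53, and Anxa1, at rank 62, followed by S100a11 (133), Anxa2 (202), S100a10 (466), Anxa4 (546), Anxa6 (1797) and Anxa5 (3387). Over the 4 skin libraries alone none of the 5 genes was among the 5 nearest, and they stood at ranks 272 to 450. The order of the members also changed there, with Anxa6 at rank 34 and Anxa4 at 220. The others were Anxa2 (1313), S100a11 (1822), S100a10 (1831), S100a6 (2004), S100a4 (2828), Anxa1 (3138) and Anxa5 (4466). Likeness over all 7 libraries largely follows the difference between the tissues, which was in view when the members were chosen.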

How the data were processed

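The authors deposited raw read counts per gene symbol for 7 libraries of sorted mouse Tregs. Per the labels' protocols, RNA was column-purified and cDNA made with a SMARTer Ultra Low Input kit. The submitters' processing notes name HTSeq 0.6.1, SAMtools 0.1.19.0, TopHat2 2.0.12, CASAVA 1.8.2, Bowtie2 2.1.0.0 and build mm10. Annotation and strand setting were not given in the sources used here. Overlapping and antisense genes therefore cannot be told apart. The line for multiple alignments held 64.90% to 70.4% of all counts in SDLN and 61.2% to 64.85% in skin. The tissues did not overlap in it (exact permutation p = 0.0286, adjusted 0.1), and its part in the levels was not tested. The line for no feature held 10.0% to 17.1%, and these lines were left out of library sizes. A further 27 symbols had become dates and were kept.

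Genes kept by filterByExpr (minimum count 10) in edgeR 4.0.16 under R 4.3.3, 11376 in all, were scaled by TMM and compared with the quasi-likelihood test with robust estimation, two-sided. A call was an adjusted p (Benjamini-Hochberg) under 0.05. CPM use TMM-scaled sizes, a count of 3 being 0.204 to 0.276 CPM. Lengths and positions are from GENCODE M21. Marker sums were compared by exact permutation over the 35 assignments of the libraries. Fold changes in the text are fitted values of skin over SDLN, and likeness used a prior count of 2. The members and lists were chosen with earlier results of these data known. All members are named, and from each list the genes called or, where none was, its most abundant, beside the 5 genes most like Ahnak. A gene that this rule names is not reported here. Other family genes with counts in single libraries were named after their values were seen. Alternatives were other scalings and filters, DESeq2 1.42.0, voom in limma 3.58.1, no robust estimation, a replicate block, each library left out, other lengths and a shorter promoter window. The fit was tested on simulated data.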

Additional observations from a re-analysis of the deposited data

Results flagged for a closer look

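Of 33 values checked over the 4 skin libraries, 7 had a library that stood apart from the other 3 by Dixon's gap ratio. The ratio flags about 1 in 20 only for normally distributed values, and a gene at 0 in 3 libraries is always flagged. The 7 are therefore not set against chance. Anxa4 was at 76.6 CPM in skin 3, below the 107 to 109 CPM of the others. Skin 3 also stood apart in the keratinocyte marker sum, at 1511 CPM against 21.1 to 30.6, in the fibroblast marker sum, at 3116.5 CPM against 3.14 to 11.1, and in S100a3, at 318.5 CPM against at most 0.0809. Skin 4 stood apart in the macrophage and dendritic cell marker sum, at 674 CPM against 189 to 196, and in Anxa9, at 32.0 CPM with the others at 0. S100g was at 1.13 CPM in skin 2, from 14 counts, with none in the other skin libraries.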

How the results depend on the processing

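Of 216 alternative log2 fold changes of the 10 members, Cd44 and Plec, 174 kept their direction and side of the threshold, 27 lost the call, 9 gained it and 6 changed sign. As a description, Ahnak kept its call in all 18 alternatives, at 4.26 to 4.44. The 6 sign changes were all of Anxa5: -0.013 with upper-quartile scaling, -0.12 with limma-voom, -0.48 and -0.46 with the replicate block, and -0.04 and -0.33 without SDLN 2 and skin 4. With 1 library left out Anxa5 ranged from -0.33 to 0.35. The genes called higher and lower were 188 and 70 with no low-count filter and 247 and 688 with limma-voom, with 923 higher by DESeq2 and 99 lower at a mean of at least 5 CPM. With the replicate block they were 32 and 10 (6 libraries) or 44 and 12 (7 libraries), and the members called were 2 in both. Same-numbered libraries deviated together little (r = 0.067, -0.0018 and -0.040), where the other combinations ranged from -0.079 to 0.102. With so few libraries these values cannot tell whether the numbers mark pairs. With 1 library left out, the genes called ranged from 33 to 582 higher and 9 to 822 lower, and the members called from 2 to 8. With skin 1 and skin 3 both left out, chosen after seeing the data, they were 1005 higher, 1536 lower and 8 members. The cause of these shifts was not tested. The median of all genes moved from 0.05 to -0.62 with limma-voom and to -0.55 and -0.54 with the block. Of 40 alternative per-length levels 11 moved, all with the longest transcript as length. With 3 and 4 libraries the smallest exact p is 0.0286, and counts near 3 limit the rarer relatives.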

Other observations

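S100a2, a keratinocyte-linked S100 gene that was in none of the lists and was looked up after the data were seen, had 0, 5 and 2 counts in SDLN 1 to 3 and 28 counts in skin 4, with none in the other skin libraries.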
